A study of Bos taurus with 8 samples.

Results

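Transcripts of fatty acid uptake, activation, storage, release, synthesis and oxidation were examined in bovine conceptuses at day 15. A list of 47 genes was looked up by gene name, and 44 were found among the 15267 genes of the deposited table. FABP1, FABP4 and DGAT2 were not analysed here. The 8 samples are each 1 of the 2 parts of a divided filamentous conceptus, obtained through in vitro embryo development. In 4 samples, called FLI here, a fibroblast growth factor (FGF2), leukemia inhibitory factor (LIF) and an insulin-like growth factor (IGF1) had been added, and 4 samples were labelled control. Samples are called by the end of their titles: control 10, 20, 3M and 4M, and FLI 20, 3M, 4M and 50. The study's title concerns embryos after slow-rate freezing, but no label says which samples were frozen, and the sources used here give neither dose nor time of addition. No label says whether the samples came from separate embryos, or whether parts of the same conceptus are in both groups. Each p-value here sets the group difference against the spread within the groups, part of which may be technical. It treats the 8 samples as independent, which the labels do not settle.

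Fatty acids enter a cell with the help of the scavenger receptor CD36 and of fatty acid transport proteins, are carried in the cytosol by fatty acid binding proteins, and are activated to acyl-CoA before any further use. The acyl-CoA is then stored as triacylglycerol in lipid droplets coated by perilipins, or burned in mitochondria after the carnitine shuttle. Peroxisome proliferator-activated receptors (PPARs) are nuclear receptors that bind fatty acids and prostanoids and act together with a retinoid X receptor, and PPARG is known in sheep for its part in conceptus elongation.

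Levels are TMM-scaled CPM, the reads of a gene scaled to a fixed library total that is adjusted by the trimmed mean of M values, in libraries of 108851495 to 152570016 reads. Group means are compared as means of log2(CPM + 0.5) wherever a gene is counted as higher or lower in FLI. Of the 44 genes, 43 reached 1 CPM in at least 4 samples and were tested, and PPARA did not. Trophectoderm markers were present in every sample, with KRT8, a keratin of simple epithelia, at 6804 to 12590 CPM. Their summed level over 15 genes was 14890 to 27830 CPM in control and 20480 to 30860 CPM in FLI. A higher mean log2 level in FLI was found for 14 of 15, beside 50.8% of all tested genes, with ELF5 at a difference of 0.00124. Among samples with titles ending in M, CDX2 (-0.49), TFAP2C (-0.27), ELF5 (-0.15) and TEAD4 (-0.14) were lower in FLI and the other markers of this list higher. Control 10 had the lowest level of the trophoblast transcription factors CDX2, GATA2, GATA3, TFAP2A, TFAP2C, ASCL2 and DLX3. Its TFAP2C was at 24.4 CPM, where the other samples had 152.6 to 272.6 CPM, and its GATA3 at 11.7 CPM against 61.2 to 221 CPM. Its levels of HAND1 (24.4 CPM) and ELF5 (2.72 CPM) lay within the range of the other samples, and it had the highest level of KRT19 and TEAD4. The summed level of control 10 (22160 CPM) was within the range of the other samples. That sum was mostly the keratins KRT8, KRT18 and KRT19 (10690, 5089 and 5495 CPM), so it says little about the transcription factors. Hypoblast and yolk sac markers summed over 17 genes to 896.5 to 9811 CPM in control and 1330 to 3937 CPM in FLI, mostly from APOA1, APOE and RBP4. Of these markers, 11 of 15 tested had a lower mean log2 level in FLI. AFP, which yolk sac endoderm secretes, was listed at 0 in 5 of the 8 samples. Epiblast markers summed over 10 genes to 303.8 to 723.7 CPM in control and 266.9 to 459.7 CPM in FLI, with 8 of 9 tested lower. That sum was mostly LIN28A, SALL4, TDGF1 and DNMT3B, each at 36.3 CPM or more in every sample. POU5F1 was at 1.4 CPM in FLI 20 and 1.0 CPM in FLI 50, and at 4.80 to 32.7 CPM in the other samples. NANOG was at 0.0175 and 0.0592 CPM in these 2, and at 0.903 to 5.66 CPM in the others. NODAL, an epiblast signal at no more than 1.81 CPM in any sample, was listed at 0 in FLI 20 and FLI 50. Markers of streak and extraembryonic mesoderm summed over 13 genes to 14.9 to 217 CPM in control and 28.0 to 56.6 CPM in FLI. Control 10 was the highest of the 8 samples in the hypoblast, epiblast and mesoderm sums. The other controls had 896.5 to 4380, 303.8 to 622.3 and 14.9 to 67.7 CPM in these sums. In such bulk samples fewer cells of a type and less RNA per cell cannot be told apart, and the part of tissue make-up in the lipid results was not tested.

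The comparison of FLI with control asked whether the added factors went with other levels of lipid genes. Among the tested members, 33 of 43 had a higher mean in FLI, where 50.8% of all 11897 tested genes did. The median difference was 0.17 on the log2(CPM + 0.5) scale against 0.00 over all tested genes. Members were chosen with earlier results of these data known, so this share was not tested and does not describe lipid genes at large. No member passed: limma with Benjamini-Hochberg adjustment called 0 of 43 at an adjusted p of 0.05 (0.0% of all tested genes), and the smallest adjusted p was 0.97. At an unadjusted p under 0.05 limma had 2 members, where 2.84% of all genes were under it: MGLL on the higher side (1.89% of all genes) and LPL on the lower side (0.95%). The edgeR quasi-likelihood test on the recovered reads also called 0 members, with 1 at an unadjusted p under 0.05 (3.16% of all genes), and DESeq2 called 0 members (0.0756% of all genes) with 6 at an unadjusted p under 0.05 (5.11%). The groups did not overlap for 1 member (1.45% of tested genes), MGLL, whose FLI values lay all above the controls (0.841%), and for 0 members were all FLI values below them (0.605%). In the authors' deposited results 0 of the 44 had an adjusted p under 0.05 (0.21% of its genes did) and 8 of 44 a p under 0.05 (5.29%).

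**Figure D1:**
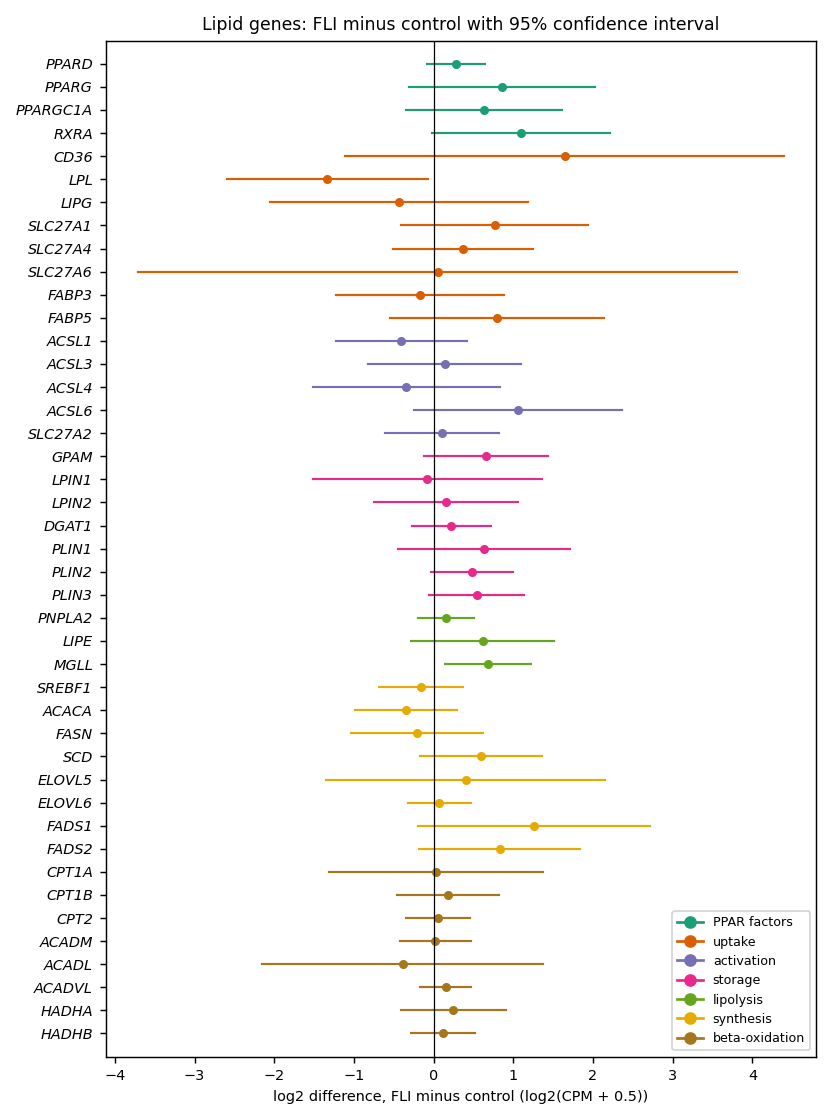
Difference of FLI minus control in log2(CPM + 0.5) for the 43 tested genes (points), with 95% confidence intervals from limma (lines), coloured by metabolic step. The intervals of MGLL and LPL are the 2 that leave out 0, before any adjustment.

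Among the receptors and their partners, RXRA and PPARG had higher means in FLI with overlapping groups. RXRA, the retinoid X receptor that pairs with PPARs (chromosome 11, 105021683 to 105114871 of ARS-UCD1.2), was at 27.4, 93.9, 155 and 87.9 CPM in control 10, 20, 3M and 4M and at 235, 176, 164 and 109 CPM in FLI 20, 3M, 4M and 50. Control 10 was lowest, and 3 of 4 FLI samples lay above every control. The log2 difference was 1.10 (SE 0.487, limma unadjusted p = 0.0527, adjusted p = 0.97), and it was 0.60 without control 10. PPARG (chromosome 22, 56709248 to 56835386), the receptor of adipocyte and trophoblast differentiation, was at 7.01, 40.6, 13.5 and 16.96 CPM in the controls and at 27.4, 46.2, 16.6 and 35.8 CPM in FLI, in the same sample order. Control 20 lay among the high FLI samples and FLI 4M among the low controls, so the groups overlapped, and the log2 difference of 0.86 (SE 0.511) had a 95% confidence interval of -0.31 to 2.02 and was 0.48 without control 10.

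PPARD, the widely expressed PPAR, was at 71.5, 67.8, 69.2 and 58.3 CPM in the controls and 101, 91.5, 66.6 and 69.3 CPM in FLI. FLI 20 and FLI 3M were above all controls and the other FLI samples within their range. Per kilobase of exon, PPARD held 68.8 to 91.7% of the 3 receptors' summed level in every sample and PPARG 6.74 to 30.9%. PPARA, the receptor of fatty acid oxidation in liver, was at 0.927, 0.1745, 0.0597 and 0.0449 CPM in the controls and 0.0349, 0.0157, 0.110 and 0.138 CPM in FLI. Control 10 stood above the rest with 122 reads, where the other samples had 2 to 27. PPARGC1A, a coactivator of mitochondrial genes, averaged 5.40 ± 2.37 CPM without and 8.39 ± 3.496 CPM with the added factors (SD, n = 4 each, as in all such values below). All 4 tested genes of this step had a higher mean in FLI, and in control 10 RXRA, PPARG and PPARGC1A stood at their lowest level of the 8 samples.

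**Figure D2:**
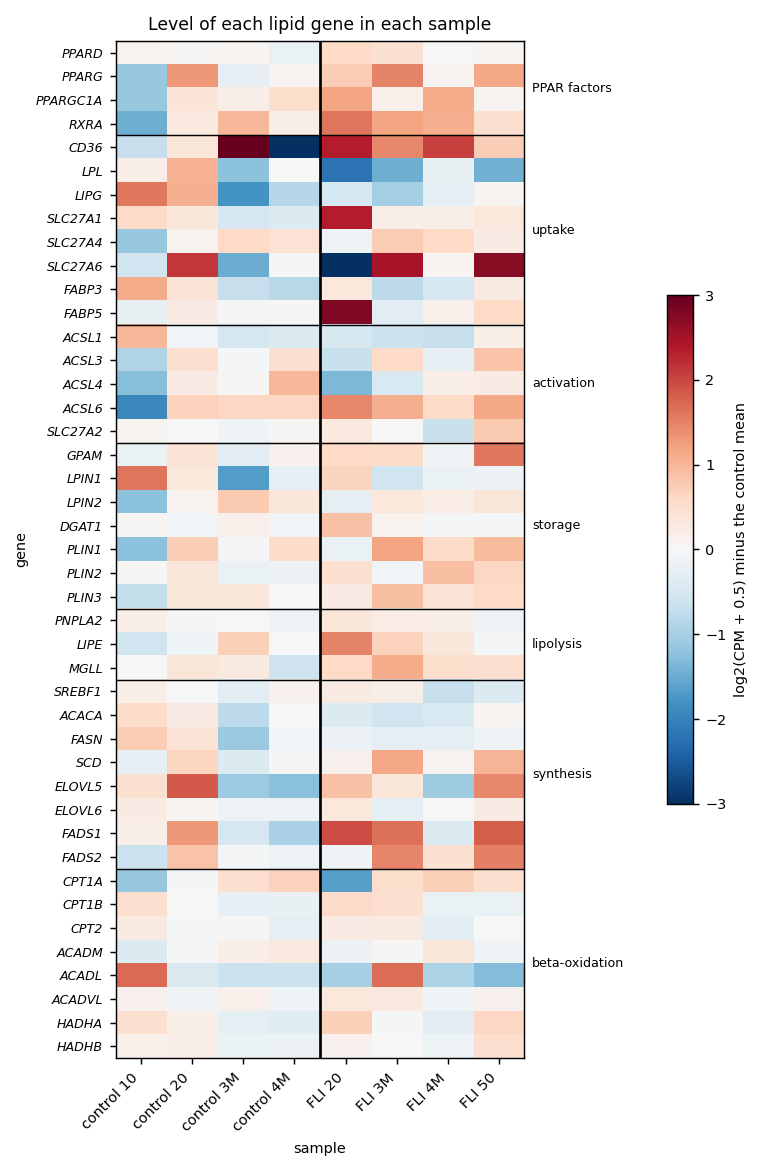
Level of the 43 tested genes (rows, by step) in the 8 samples (columns) as log2(CPM + 0.5) minus the mean of the 4 controls; the colour stops at -3 and 3. FLI 20 holds the highest level of 15 of the 43 genes (20.1% of all tested genes). Control 10 holds the lowest level of 12 of them, a share near the 28.3% of all tested genes. SLC27A6 and CD36 span the widest ranges.

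Uptake genes had no common direction, with 5 of 8 higher and 3 lower in FLI, and several spanned wide ranges within a group. LPL, the lipase that frees fatty acids from circulating lipoproteins (chromosome 8, 66989665 to 67016690), was at 2.65, 5.14, 0.664 and 2.20 CPM in control 10, 20, 3M and 4M and at 0.0874, 0.495, 1.83 and 0.513 CPM in FLI 20, 3M, 4M and 50. In FLI, 3 samples lay below every control, and FLI 4M lay inside the control range. The log2 difference was -1.33 (SE 0.554, limma unadjusted p = 0.0407, adjusted p = 0.97). Within samples of like title ending it was -2.45 (ending 0) and -0.22 (ending M). At such low levels the added 0.5 understates a difference. In the authors' deposited table LPL has a log2 fold change of -2.32 and an adjusted p of 0.285. LIPG, the related endothelial lipase, was at 23.7, 16.3, 1.82 and 3.996 CPM in the controls and 5.11, 3.502, 6.17 and 8.02 CPM in FLI. Its FLI values all lay between the lowest and the highest control.

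CD36, which takes up long-chain fatty acids at the plasma membrane, was at 3.14, 7.03, 66.1 and 0.150 CPM in control 10, 20, 3M and 4M. Control 3M and control 4M thus differed by a factor of 442, which was the widest span of any tested member. In FLI 20, 3M, 4M and 50 CD36 was at 29.4, 15.5, 23.7 and 9.28 CPM, all within the control range. The log2 difference was 1.64 (SE 1.21), while the group means in CPM were near each other, 19.1 ± 31.5 CPM in control and 19.5 ± 8.87 CPM in FLI.

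SLC27A6, a fatty acid transport protein known from human heart (chromosome 7, 25037025 to 25117897), was at 121, 785.7, 64.2 and 175 CPM in the controls and 4.97, 1014, 187.5 and 1194 CPM in FLI. The highest and the lowest sample both belonged to FLI, and the log2 difference was 0.05 (SE 1.65, 95% confidence interval -3.71 to 3.81). Fits on the recovered reads gave 1.04 (DESeq2) and 1.07 (edgeR), and the authors' deposited table has 1.64, without a call in any of them. SLC27A1, a transport protein known from muscle and fat, went the other way in FLI 20: it was at 17.4, 14.6, 7.87 and 8.55 CPM in the controls and 60.9, 13.3, 13.0 and 14.4 CPM in FLI. Of the level per kilobase summed over the 6 SLC27A genes in the table, SLC27A6 held 43.7 to 93.5% in 7 samples and 3.98% in FLI 20, where SLC27A1 held 42.3%. SLC27A4, a transport protein known from mouse intestine and skin, averaged 35.8 ± 15.5 CPM without and 43.3 ± 11.6 CPM with the added factors, and was lowest in control 10 (14.5 CPM).

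The cytosolic carriers split in FLI 20 as well. FABP3, the heart-type binding protein, was at 612.5, 376, 175 and 159 CPM in the controls and 351, 164, 200.5 and 343 CPM in FLI, with all FLI values inside the control range. FABP5, the epidermal-type binding protein, was at 98.3, 136, 111.5 and 119 CPM in the controls and 793, 91.2, 129 and 176 CPM in FLI. FLI 20 alone was far above the rest, and without it the log2 difference of FABP5 was 0.14 in place of 0.80. FABP3 held 64.7 to 89.5% of the summed FABP3 and FABP5 level per kilobase in the other 7 samples and 37.8% in FLI 20.

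Of the 5 activation genes 3 had a higher and 2 a lower mean in FLI. ACSL3, an acyl-CoA synthetase of the endoplasmic reticulum and lipid droplet surface, was the most abundant and held 49.1 to 83.6% of the level per kilobase summed over the 5 ACSL genes in the table. It was at 557.8, 1462, 1011 and 1449 CPM in the controls and 652.9, 1590, 884.9 and 1898 CPM in FLI, where FLI 3M and FLI 50 were above every control and the other FLI samples within their range. ACSL6, known from brain and blood precursors, came next, at 72.3, 455, 433 and 429 CPM in the controls and 755, 593, 417 and 622 CPM in FLI. Control 10 was far below the others, and 3 of 4 FLI samples were above every control. The log2 difference of ACSL6 was 1.06 (SE 0.572, limma unadjusted p = 0.0989, adjusted p = 0.97), and it was 0.41 without control 10 and 0.21 in samples with titles ending in M. ACSL1, the form of liver and fat, was at 14.9, 6.85, 5.0 and 5.29 CPM in the controls and 5.04, 4.47, 4.32 and 8.27 CPM in FLI, with control 10 the highest. ACSL4, which prefers arachidonic acid, averaged 58.5 ± 33.4 CPM without and 43.7 ± 19.4 CPM with the added factors, and SLC27A2, a very long-chain acyl-CoA synthetase, had means of 1.05 ± 0.0994 and 1.28 ± 0.713 CPM.

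In triacylglycerol storage 6 of 7 tested genes had a higher mean in FLI, and the median log2 difference of the step was 0.48. PLIN3, the most abundant perilipin, was at 252.5, 537, 526 and 424 CPM in control 10, 20, 3M and 4M and 494, 782, 555 and 627 CPM in FLI 20, 3M, 4M and 50. FLI 20 was the 1 FLI sample below the highest control, and the log2 difference was 0.54 (SE 0.262, limma unadjusted p = 0.0719, adjusted p = 0.97), or 0.30 without control 10. PLIN2, which coats lipid droplets in most cells, was at 41.8, 52.6, 35.3 and 35.8 CPM in the controls and 58.1, 38.6, 76.9 and 62.7 CPM in FLI. Here FLI 3M was the 1 FLI sample inside the control range, and the log2 difference was 0.48 (SE 0.226, limma unadjusted p = 0.0623). PLIN3 held 86.3 to 94.6% of the level per kilobase summed over the 4 perilipin genes in the table and PLIN1, the perilipin of fat cells, at most 1.47%.

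Enzymes that build triacylglycerol follow. GPAM, which makes lysophosphatidic acid in mitochondria, averaged 29.8 ± 7.20 CPM without and 50.7 ± 26.3 CPM with the added factors, with FLI 50 at 88.3 CPM and a log2 difference of 0.66 (SE 0.339). DGAT1, which adds the last fatty acid, averaged 33.9 ± 2.69 CPM without and 41.2 ± 14.7 CPM with the added factors, and FLI 20 alone (63.0 CPM) stood above the other FLI samples (32.3 to 36.7 CPM). LPIN2, a phosphatidate phosphatase, was at 89.2 ± 43.2 and 89.8 ± 17.1 CPM. LPIN1, its relative known from fat and muscle, was at 10.6 ± 9.63 and 7.68 ± 3.34 CPM, highest in control 10 (24.3 CPM) and lowest in control 3M (2.06 CPM).

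Lipolysis held the member of smallest p, and all 3 of its genes had a higher mean in FLI. MGLL, monoacylglycerol lipase, cleaves the last fatty acid from glycerol and degrades an endocannabinoid, and the gene lies on chromosome 22 at 59639050 to 59826846. It was at 113, 149, 138 and 74.7 CPM in control 10, 20, 3M and 4M and at 174, 248, 167 and 162 CPM in FLI 20, 3M, 4M and 50. Every FLI sample was above every control, with FLI 50 the nearest to control 20. The log2 difference was 0.68 (SE 0.238, 95% confidence interval 0.14 to 1.23, limma unadjusted p = 0.0192, adjusted p = 0.97), which is a 1.61-fold difference on that scale. It was 0.48 to 0.81 when any 1 sample was left out, and 0.998 (ending M) and 0.37 (ending 0) within samples of like title ending.

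PNPLA2 and LIPE act before MGLL in lipolysis. PNPLA2, adipose triglyceride lipase, averaged 21.9 ± 2.33 CPM without and 24.6 ± 3.66 CPM with the added factors. LIPE, hormone-sensitive lipase, was at 0.973, 1.53, 3.15 and 1.70 CPM in the controls and 5.72, 3.06, 2.29 and 1.65 CPM in FLI, with FLI 20 above all other samples. Its log2 difference was 0.62 (SE 0.393). MGLL held 66.5 to 83.3% of the level per kilobase of these 3 lipases.

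**Figure D3:**
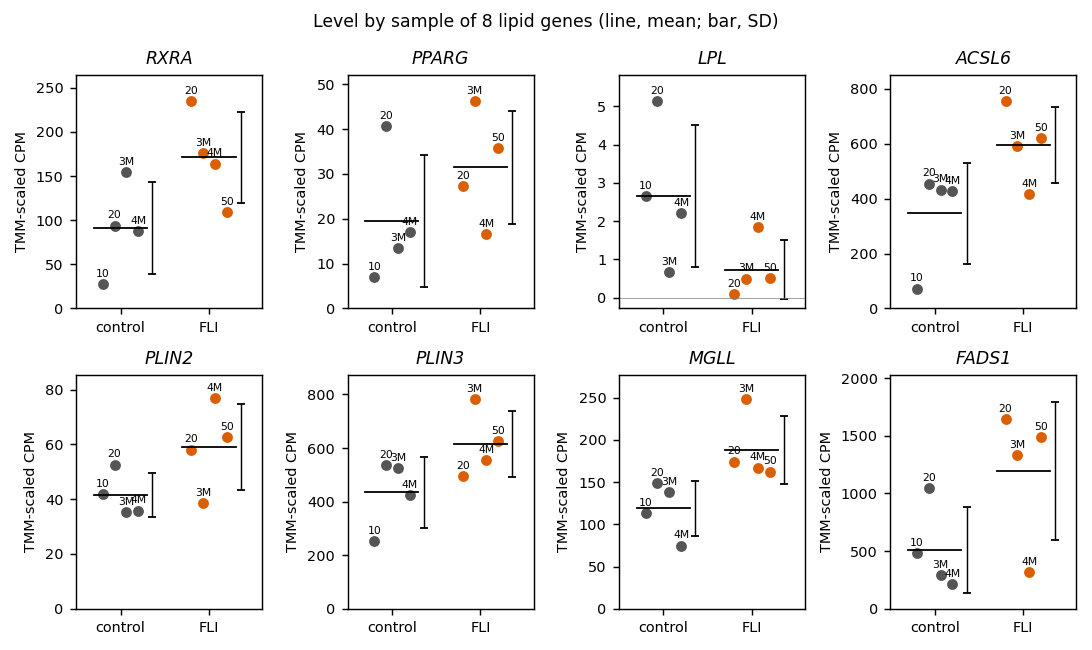
TMM-scaled CPM of 8 genes in each control (grey) and FLI (orange) sample, with the group mean (horizontal line) and SD (bar to the right of each group). MGLL is the gene whose groups do not overlap, and control 10 is the lowest sample for RXRA, PPARG, ACSL6 and PLIN3.

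In synthesis 5 of 8 genes had a higher mean in FLI, the 3 desaturases and both elongases, and 3 a lower one. FADS1 and FADS2, neighbouring genes on chromosome 29 (40244038 to 40351218 and 40350389 to 40387558), encode the desaturases that make polyunsaturated fatty acids, and their spans overlap but share no exon base in the table. FADS1 was at 480, 1045, 295 and 214 CPM in control 10, 20, 3M and 4M and at 1646, 1330, 318 and 1491 CPM in FLI 20, 3M, 4M and 50. FLI 4M lay inside the control range, and the other 3 were above every control. The log2 difference was 1.26 (SE 0.636, limma unadjusted p = 0.0811, adjusted p = 0.97), with 1.81 without FLI 4M and 0.93 without control 4M. In the authors' deposited table FADS1 has the smallest p of the members, with a log2 fold change of 1.61 and an adjusted p of 0.16. FADS2 was at 495, 1417, 750.7 and 696 CPM in the controls and 715, 2161, 1070 and 2209 CPM in FLI. Its log2 difference was 0.83 (SE 0.442), and FLI 3M and FLI 50 were above every control.

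SCD, the desaturase that makes oleic acid, was at 1210, 2247, 1080 and 1491 CPM in the controls and 1577, 3239, 1525 and 2920 CPM in FLI, where FLI 3M and FLI 50 were above every control. FASN, fatty acid synthase, averaged 1525 ± 728.5 CPM without and 1183 ± 61.9 CPM with the added factors, and ACACA, which makes its malonyl-CoA substrate, had means of 192 ± 67.9 and 145 ± 31.0 CPM. ACACA shares 76 exon bases with TADA2A on the opposite strand, and whether strand was used in counting is not stated. Both had all FLI values inside the control range, and both were highest in control 10 (2335 and 267 CPM) and lowest in control 3M (637 and 105 CPM). SREBF1, the transcription factor of fatty acid synthesis genes, averaged 97.9 ± 14.0 CPM without and 90.1 ± 27.8 CPM with the added factors. The elongases ELOVL5 and ELOVL6 averaged 214 ± 216 and 549 ± 75.7 CPM without and 230 ± 137 and 580.5 ± 106.5 CPM with the added factors.

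Oxidation genes had small differences, and the median of the step was 0.09 with 7 of 8 higher in FLI. CPT1A, the liver-type gate of fatty acids into mitochondria, was at 11.6, 25.6, 37.4 and 42.4 CPM in control 10, 20, 3M and 4M and at 8.13, 38.2, 43.3 and 37.1 CPM in FLI 20, 3M, 4M and 50. FLI 20 and control 10 were the lowest samples, and the groups overlapped. CPT1B, the muscle-type form, averaged 2.62 ± 0.812 CPM without and 3.05 ± 1.02 CPM with the added factors, and 297 of its exon bases are shared with CHKB on the same strand, so its reads are uncertain. CPT2, the inner membrane enzyme of the shuttle, was at 29.3 ± 4.71 and 30.5 ± 5.38 CPM.

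The acyl-CoA dehydrogenases take the opening step of each oxidation cycle. ACADVL, for very long chains, was at 79.9, 67.7, 81.4 and 66.1 CPM in the controls and 92.0, 89.9, 66.8 and 80.1 CPM in FLI, with FLI 20 and FLI 3M above every control. ACADL, for long chains, was at 7.54, 1.34, 1.10 and 1.09 CPM in the controls and 0.751, 7.36, 0.789 and 0.503 CPM in FLI. Control 10 and FLI 3M were near each other and far above the other 6 samples. ACADM, for medium chains, was at 31.7 ± 6.68 and 32.0 ± 5.72 CPM. HADHA, the alpha subunit of the mitochondrial trifunctional protein, was at 59.4, 48.2, 34.3 and 32.5 CPM in the controls and 69.2, 41.3, 34.0 and 65.8 CPM in FLI, and its partner subunit HADHB at 51.2 ± 7.69 and 56.0 ± 11.7 CPM.

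Levels of different genes were compared per kilobase of exon. FADS2, SCD, ACSL3, PLIN3 and FABP3 were the 5 most abundant members, with means over all samples of 382.5, 357.5, 272, 255 and 222 CPM per kb. Oxidation genes were lower, from 0.809 CPM per kb for CPT1B to 31.0 for ACADVL. The members also varied more between samples than most genes: the highest sample exceeded the lowest by a median factor of 3.86 over the 43 members and 1.99 over all tested genes. A sample at least 4-fold from the median of its own group was found for 10 of the 43 members and for 8.79% of all tested genes.

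Levels shared between samples did not always follow the treatment. For 6 members, ACSL3, FADS2, PLIN1, PPARG, SCD and SLC27A6, the 3 highest samples were control 20, FLI 3M and FLI 50, which was so for 1.75% of all tested genes. This set was singled out after its values were seen, and it is 1 of several sets: FLI 20, FLI 3M and control 10 were the 3 highest for 5 members (CPT1B, CPT2, PNPLA2, PPARD and SREBF1), and for 2.34% of all tested genes. PLIN1 was at 12.1, 16.8 and 14.2 CPM in control 20, FLI 3M and FLI 50 and at 2.71 to 10.8 CPM elsewhere. SLC27A6 had the widest gap, with 785.7 to 1194 CPM in these samples and at most 187.5 CPM in the others.

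**Figure D4:**
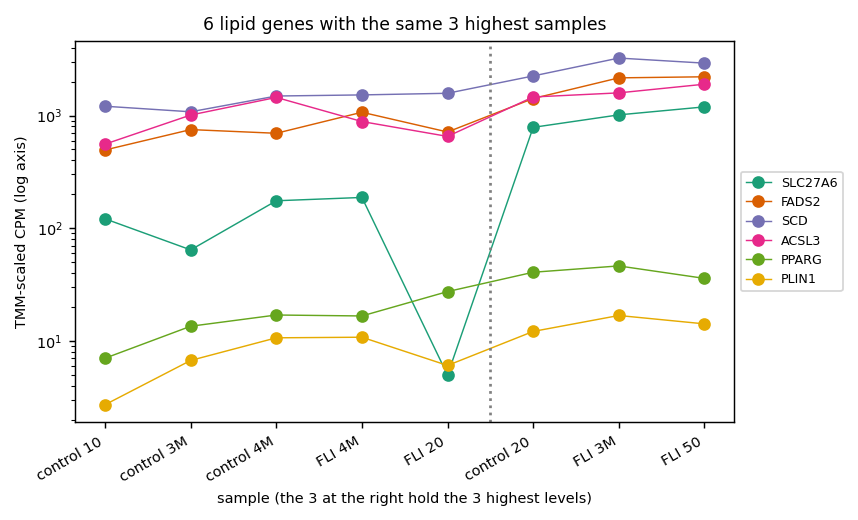
TMM-scaled CPM (log axis) of 6 genes in the 8 samples, ordered so that the 3 samples right of the dotted line hold the 3 highest levels of each gene; lines join the points of a gene and imply no order. SLC27A6 spans 4.97 CPM in FLI 20 to 1194 CPM in FLI 50, while SCD stays between 1080 and 3239 CPM.

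Some members split by the last character of the titles, as did other genes among all those tested. No label explains this character, and the split was looked at after the values were seen. All 4 samples with titles ending in 0 lay above all 4 ending in M for 7 of 43 members (16.3%, beside 8.99% of all tested genes). They lay below them for 3 members (6.98%, beside 9.47%). Such a split was thus also seen outside the lipid genes. The share above was larger in the members than in all tested genes, and this difference was not tested. The 7 were SLC27A1, FABP3, LPIN1, ELOVL5, ELOVL6, HADHA and HADHB, and the 3 were SLC27A4, CPT1A and ACADM. FABP3 was at 343 to 612.5 CPM in samples ending in 0 and 159 to 200.5 CPM in those ending in M, and HADHA at 48.2 to 69.2 and 32.5 to 41.3 CPM. CPT1A was at 8.13 to 37.1 and 37.4 to 43.3 CPM. Most markers of hypoblast and yolk sac moved with this split: 10 of 15 tested lay above in all samples ending in 0. FOXA2, PDGFRA, APOA2, TF and AMN overlapped, and PDGFRA had the lower mean in samples ending in 0 (12.6 against 17.4 CPM). The summed level of the markers was 3319 to 9811 CPM in samples ending in 0 and 896.5 to 1868 CPM in samples ending in M. It was mostly APOA1, APOE and RBP4, so it says little about the other markers. The part of these markers in the lipid values was not tested.

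**Figure D5:**
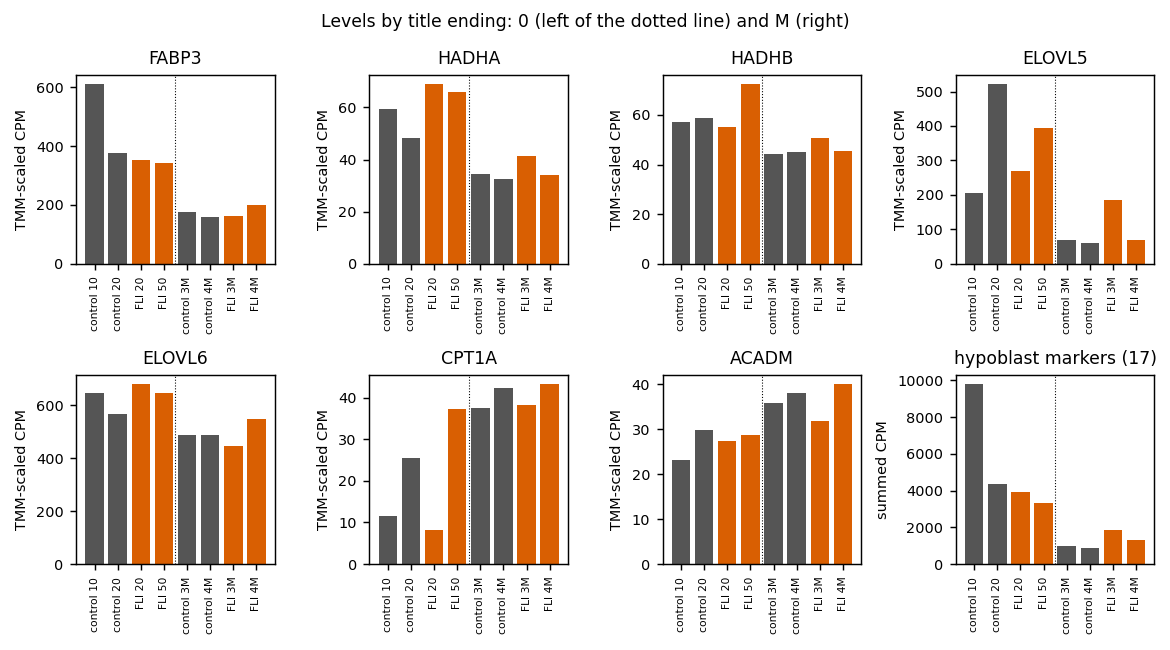
TMM-scaled CPM of 7 lipid genes and the summed CPM of 17 hypoblast and yolk sac markers in each sample, control in grey and FLI in orange, with titles ending in 0 left of the dotted line and in M right of it. FABP3, HADHA, HADHB, ELOVL5 and ELOVL6 are higher on the left in every sample, CPT1A and ACADM lower. The summed marker level is mostly APOA1, APOE and RBP4.

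Of 151 further genes of the same steps, listed from general knowledge of the pathway, 130 were found and 111 tested. Earlier results of these data were known here too, so this list was not tested as a set. Of these, 73 had a higher mean log2 level in FLI (65.8%, beside 50.8% of all tested genes) with a median log2 difference of 0.10, 5 were higher and 1 lower at an unadjusted p under 0.05 (1.89% and 0.95% of all tested genes), and 0 passed adjustment in limma, edgeR or DESeq2. By step, the higher means were 25 of 33 in oxidation, 11 of 15 in storage, 9 of 12 in activation, 7 of 10 in lipolysis, 6 of 10 among receptors and cofactors, 11 of 22 in synthesis and 4 of 9 in uptake. MFSD2A, a carrier of lysophosphatidylcholine with polyunsaturated fatty acids, was at 19.0, 6.45, 6.66 and 9.80 CPM in the controls and 1.56, 2.17, 4.64 and 5.81 CPM in FLI. It was the 1 further gene of 111 whose groups did not overlap (1.45% of all tested genes, 0.605% on the lower side), with a log2 difference of -1.45 (SE 0.456, limma unadjusted p = 0.0119, adjusted p = 0.97). ACSL5, an acyl-CoA synthetase of mitochondria and gut, averaged 0.806 ± 0.585 CPM without and 3.32 ± 2.12 CPM with the added factors, and FLI 50 (0.849 CPM) lay inside the control range. ECI2, an isomerase for unsaturated fatty acids, was at 38.5 ± 21.5 and 93.8 ± 60.4 CPM, with 181 CPM in FLI 20. TECR, of fatty acid elongation, was at 316 ± 108 and 494 ± 132 CPM, and CRAT, carnitine acetyltransferase, at 77.7 ± 25.3 and 120 ± 26.7 CPM.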

How the data were processed

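RNA of 8 bovine conceptus samples (4 control, 4 FLI, grouped by title) was sequenced after stranded mRNA library preparation, per the labels. Tools named by the submitters' processing notes are FastQC, HISAT2, featureCounts and edgeR, with build ARS-UCD1.2; the sources used here give no versions or strand setting. Per the values, the signal the authors deposited is CPM of a TMM-scaled total: 100% of values were whole multiples of 1 read per column (tolerance 0.001 reads). The authors' deposited table also gives log2 fold changes, a likelihood ratio score and p-values.

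Since values were normalized, limma 3.58.1 (eBayes, trend) was run on log2(value + 0.5) over the 11897 genes with at least 1 CPM in at least 4 samples, two-sided, with Benjamini-Hochberg adjustment at 0.05 over all of them. A fold on this scale understates changes of low genes. edgeR 4.0.16 and DESeq2 1.42.0 (R 4.3.3) on recovered reads were alternatives. Scripts were tested on simulated data. Reads of 3 in a library correspond to 0.0194 to 0.0296 CPM, a limit that covers counting error only, and the lowest gene of the table had 112 reads in all.

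Members and lists were chosen with earlier results of these data known, so no list was tested. Sample values are given for the 2 members of smallest p and the most abundant per kb in each step, those with separate groups, and those with a sample 4-fold or more from its group's median; PPARG and SCD were added after their values were seen. Further lipid genes are named where the unadjusted p was under 0.05 or the groups did not overlap, and 1 of these is not reported here. Both groups have titles 20, 3M and 4M: deviations from group means correlated at 0.133, 0.351 and 0.359 for these pairs, all above 0.1, so a block for the title number on these 6 samples was an alternative. Pairs that share only the last title character correlated at 0.155 to 0.312, so pairing by number cannot be told apart from likeness by that character.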

Additional observations from a re-analysis of the deposited data

Results flagged for a closer look

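Among 86 groups of 4 samples (43 genes in 2 groups), 7 held a sample far from the other 3, by Dixon's 95% limit on the log2(CPM + 0.5) scale; chance flags about 1 in 20 groups. FLI 20 held 2 of them: SLC27A1 at 60.9 CPM where the rest of FLI had 13.0 to 14.4 CPM, and CPT1A at 8.13 CPM against 37.1 to 43.3 CPM. Control 10 also held 2: ACSL6 at 72.3 CPM against 429 to 455 CPM in the other controls, and ACADL at 7.54 CPM against 1.09 to 1.34 CPM. FLI 3M was high for MGLL, at 248 CPM against 162 to 174 CPM, and for ACADL, at 7.36 CPM against 0.503 to 0.789 CPM. FLI 4M was low for FADS1, at 318 CPM against 1330 to 1646 CPM.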

How the results depend on the processing

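0 members passed adjustment under any of the alternatives run; over all genes DESeq2 called 9. The median difference of the members stayed positive, from 0.16 to 0.30 when 1 sample was left out, with 28 to 34 of 43 higher; it was 0.28 with 31 higher under the replicate block, which changed no call, and 0.17 with 36 higher without control 10 and FLI 20 together (added after seeing the data). Library size alone moved the median of all genes from 0.00 to -0.09, that of the members to 0.09 and that of the further lipid genes to 0.00353. Of 43 members 23 kept their direction throughout, among them MGLL, LPL, RXRA, PPARG, FADS1, FADS2 and SCD, and in the cases below the cause was not tested. Log2 differences turned direction under library size alone for SLC27A6 (-0.0502), ELOVL6 (-0.03), CPT1A (-0.071), CPT2 (-0.0459) and ACADM (-0.0774). The replicate block turned SLC27A6 (-1.03), FABP3 (0.0477), ACSL3 (-0.407), SLC27A2 (-0.0981), LPIN1 (0.49), LPIN2 (-0.325), FASN (0.0159), CPT1A (-0.51), ACADM (-0.072) and ACADL (0.48). For SLC27A6 the log2 difference was also 1.04 in DESeq2 and 1.07 in edgeR, beside 0.0495. Titles ending in 0 turned SLC27A6 (-1.94), ELOVL5 (-0.00749) and CPT1B (-0.0544). Titles ending in M turned LIPG (0.678), FABP3 (0.122), FABP5 (-0.0877), ACSL3 (-0.0289), SLC27A2 (-0.282), LPIN1 (0.555), LPIN2 (-0.294), DGAT1 (-0.00688), FASN (0.316), ACADM (-0.0473) and ACADL (0.997). Without control 10 and FLI 20, turned values were LIPG (0.124), FABP3 (0.0368), LPIN1 (0.206), LPIN2 (-0.107), FASN (0.0263), ACADM (-0.0486) and ACADL (0.374). Ranges over leaving out each sample, for members that turned, were ACADL -1.08 to 0.176, ACADM -0.118 to 0.116, ACSL3 -0.166 to 0.408, CPT1A -0.354 to 0.58, CPT2 -0.0347 to 0.174, ELOVL5 -0.0163 to 1.01, ELOVL6 -0.0126 to 0.191, FABP3 -0.45 to 0.198, FASN -0.582 to 0.0425, HADHB -0.0129 to 0.21, LIPG -1.03 to 0.0939, LPIN1 -0.635 to 0.456, LPIN2 -0.256 to 0.418, SLC27A2 -0.125 to 0.362, SLC27A4 -0.0143 to 0.569, SLC27A6 -0.84 to 1.75 and SREBF1 -0.306 to 0.0145.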

Other observations

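Some further lipid genes also split by the last title character, as did other genes among all those tested. All samples ending in 0 lay above all ending in M for 19 of 111 tested (17.1%, beside 8.99% of all tested genes). They lay below for 7 (6.31%, beside 9.47%). Of the peroxisomal oxidation genes, ACOX3 was at 18.0 to 46.6 CPM in samples ending in 0 and 4.34 to 9.93 CPM in those ending in M, and EHHADH at 5.68 to 17.4 and 2.25 to 3.58 CPM. LRP1, a lipoprotein receptor, was at 31.5 to 82.6 and 5.15 to 14.1 CPM. ACLY, which makes cytosolic acetyl-CoA, was at 314 to 769 and 213 to 266 CPM, and INSIG1, a sterol sensor of the SREBP pathway, at 34.3 to 105 and 18.8 to 33.6 CPM. DECR2, a peroxisomal reductase of unsaturated fatty acids, went the other way at 18.7 to 80.3 and 90.7 to 132 CPM.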
